A study of Mus musculus with 12 samples.

Results

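The 10 genes described here carry the growth hormone signal in liver and its output into the blood. They are Ghr, Jak2, Stat5a, Stat5b, Socs2, Cish, Bcl6, Igf1, Igfals and Igfbp1, chosen by name out of 22322 gene symbols in the tables. For each symbol the transcript with the highest mean RPKM (reads scaled to transcript length and to sequencing depth) was used, out of 36 transcript rows that the 10 genes have together. All 10 passed the filter on low values, under which the mean had to reach 1 RPKM in 1 group or more, and which left 10799 genes to test.

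Liver RNA came from C57BL/6 mice aged 8 weeks, all male by the study's methods, in 4 groups of 3 libraries. The WT mice carried floxed Bmal1 alleles (Bmal1 flox/flox), in which loxP sites flank an exon of Bmal1. The KO mice carried the same alleles together with a CRE recombinase driven by a liver-specific promoter. No CRE is stated for WT, so effects of the recombinase and of the loss of Bmal1 cannot be told apart. Livers were taken at circadian time 0 h (CT0, subjective dawn) or 12 h (CT12, subjective dusk) after days in complete darkness. The protocol text of the samples names fewer mice per group and time than there are libraries. The study's methods instead name 3 KO and 3 WT mice for CT0 and CT12. Whether each library comes from its own mouse is thus not settled, and the spread between libraries may be partly technical.

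Growth hormone from the pituitary binds its receptor on hepatocytes, and the kinase JAK2 bound to that receptor then phosphorylates STAT5A and STAT5B. The STAT5 dimers enter the nucleus and switch on Igf1, Igfals and the feedback inhibitors Socs2 and Cish. STAT5 is also known to repress Bcl6, whose protein binds many of the same sites and represses them. In male rodents growth hormone is released in pulses, so that STAT5 activity in liver rises and falls over hours.

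Depth recovered from the values was 16920000 to 19060000 reads in WT at CT0 and 11460000 to 16120000 reads in the other 3 groups. All 8 hepatocyte markers were detected, with a summed level of 37987 to 50698 RPKM over the WT libraries and 26255 to 34981 RPKM over the KO libraries. Over both times 1 of the 8 was lower in KO, the albumin gene Alb, with a difference of -0.99 ± 0.09 on the log2(RPKM + 1) scale (limma, adjusted p = 3.6e-05), and 1 was higher, the asialoglycoprotein receptor gene Asgr1, at 0.30 ± 0.07 (limma, adjusted p = 0.014). These calls are 25% of the 8, beside 11.5% over all tested genes. The median over the 8 was 0.02. The summed level is mostly Alb, at 36059 ± 2873 RPKM in WT against 19009 ± 2017 RPKM in KO at CT0 (SD, n = 3 each). At CT0 Arntl, which encodes BMAL1, had a level of 15.9 ± 0.37 RPKM in WT against 6.37 ± 0.944 RPKM in KO (SD, n = 3 each). At CT12 the level was 1.05 ± 0.32 RPKM in WT against 3.99 ± 0.391 RPKM in KO (SD, n = 3 each). The Arntl transcript also holds exons outside the deleted part, so its level does not by itself check the genotype.

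The main differences in the axis lay in the STAT5 genes and Igfbp1. In WT the levels of Stat5a, Stat5b and Igfbp1 were lower at CT12 than at CT0, and Stat5b was higher in KO than in WT at CT12. Igf1 had nearly the same mean in both genotypes at each time. Every difference below is on the log2(RPKM + 1) scale with its standard error, and every adjusted p comes from limma with the Benjamini-Hochberg method over all tested genes. This scale understates the change of genes with low values.

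Between genotypes, none of the 10 genes passed the threshold of 0.05 at CT0, where 1.86% of all tested genes did. At an unadjusted p under 0.05 the number at CT0 was 2, Stat5a and Bcl6. At CT12 1 of 10 passed, Stat5b, against 10.5% of all tested genes. Averaged over both times the same gene passed, again 1 of 10, against 11.5% of all tested genes. With time in WT 3 of 10 passed, all lower at CT12, against 11.6% of all tested genes. Of all genes called with time in WT 32% were higher at CT12, and with quantile normalization 49.9% were, while the 3 genes of the axis kept their direction and their calls. With time in KO none of the 10 passed, against 2.43% of all tested genes, and 2 had an unadjusted p under 0.05, Stat5b and Igfbp1. For the interaction of genotype and time none of the 10 passed, against 1.49% of all tested genes. There 2 had an unadjusted p under 0.05, Stat5a and Stat5b. By an ordinary linear model 1495 of the 10799 tested genes had an unadjusted p under 0.05 at CT0. With time in KO 2052 did, and for the interaction 1323 did. The same counts over all tested genes in limma were not taken. The median difference over the 10 genes was -0.0017 with time in WT and -0.052 between genotypes at CT12, beside -0.068 and 0.08 over all tested genes.

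**Figure D1:**
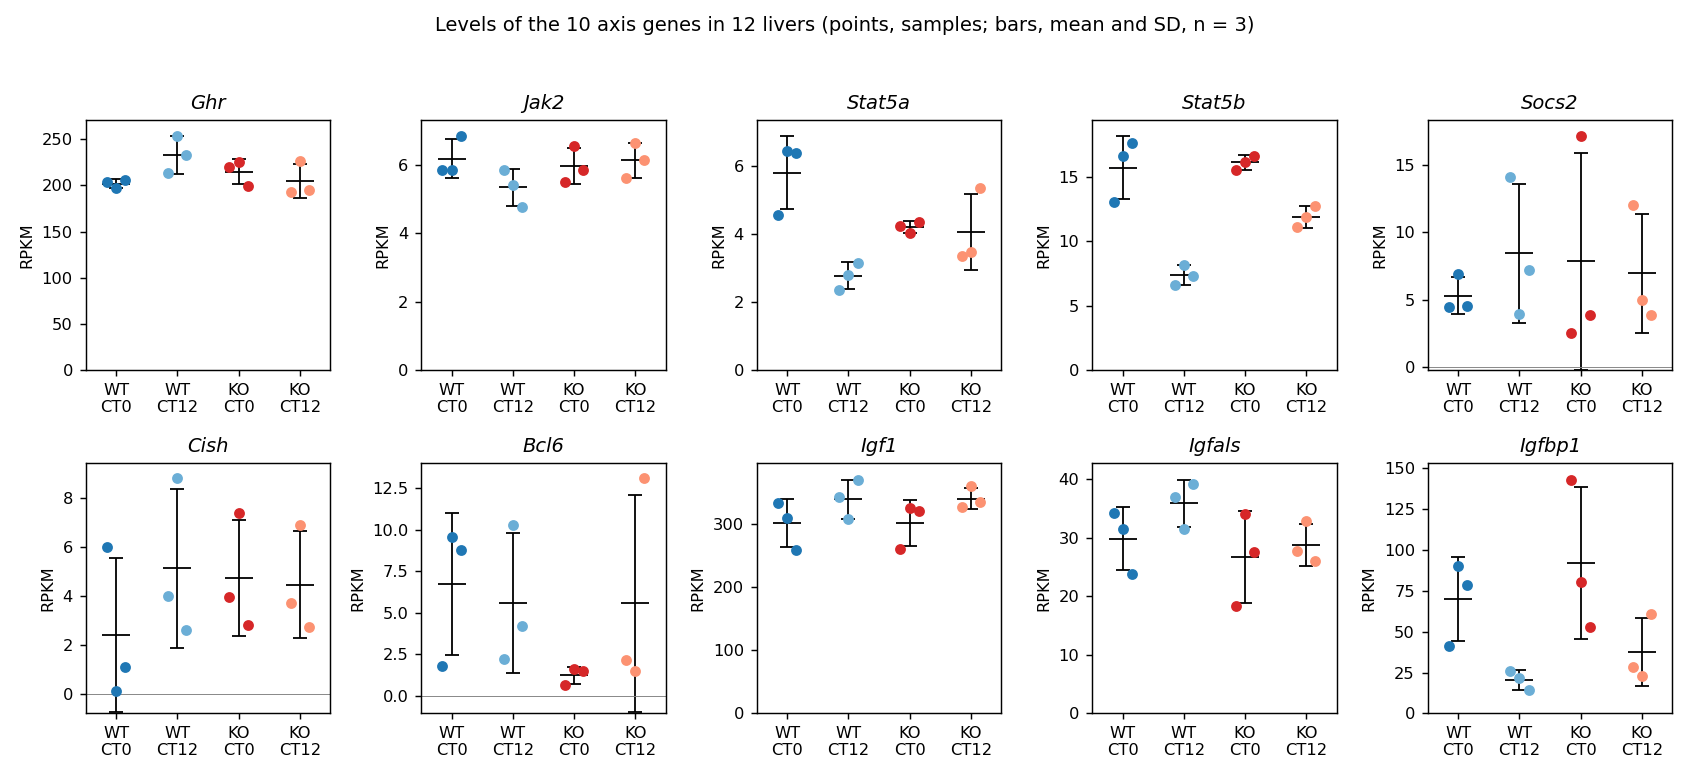
Level of each axis gene (y axis, RPKM) in the 4 groups (x axis), with 1 point per library and the mean and SD of 3 libraries as bars, which can reach below 0. Stat5b in WT falls from 13 to 17.6 RPKM at CT0 to 6.61 to 8.19 RPKM at CT12, while Socs2, Cish and Bcl6 spread widely inside the groups.

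By level the axis was led by its secreted product and its receptor. Over the 12 libraries the mean was 322 RPKM for Igf1 and 214 RPKM for Ghr, above 98.1% and 97% of the tested genes, and their ranges of 260 to 370 and 193 to 253 RPKM did not overlap. Igfbp1 followed with a mean of 55 RPKM and Igfals with 30.3 RPKM, with ranges that overlapped. Stat5b came next at 12.8 RPKM and did not overlap with Igfals. Socs2 at 7.13, Jak2 at 5.89, Bcl6 at 4.79, Stat5a at 4.21 and Cish at 4.19 RPKM followed, and each of these overlapped with its neighbour in the order. The ratio of the highest to the lowest library was 1.31 for Ghr, 1.43 for Igf1 and 1.44 for Jak2. It was 6.67 for Socs2, 10.1 for Igfbp1, 19.7 for Bcl6 and, with a lowest value of 1 read, 62.2 for Cish.

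Ghr encodes the growth hormone receptor and lies on chr15:3267760-3533230, minus strand (NCBIM37, the build the submitters' processing notes call mm9). Its level was 204, 197 and 206 RPKM in WT at CT0 and 213, 253 and 233 RPKM in WT at CT12. The KO libraries gave 220, 225 and 199 RPKM at CT0 and 193, 226 and 195 RPKM at CT12. The WT libraries of CT12 all lay above those of CT0, while the KO libraries of both times overlapped. The difference with time in WT was 0.20 ± 0.09 (adjusted p = 0.19), and KO against WT at CT12 differed by -0.19 ± 0.09 (adjusted p = 0.24). Neither passed the threshold, and the interaction of -0.27 ± 0.13 did not either (adjusted p = 0.43).

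The Ghr rows of the tables differ in length from 898 to 4175 bases, and the row used above has 1171. Fitted one by one, the difference with time in WT was 0.19 to 0.20 for the 3 rows up to 1213 bases, 0.27 for the row of 2749 bases and 0.29 for the row of 4175 bases. In KO the 5 rows lay between -0.08 and 0.00. Rows of a gene share exons, so these are not separate measurements. When every gene was measured on its longest row, the rise of Ghr in WT passed the threshold, at 0.29 ± 0.09 (adjusted p = 0.045), an alternative added after seeing the data. On that row Ghr was at 107, 104 and 110 RPKM in WT at CT0 and at 121, 138 and 135 RPKM in WT at CT12.

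Jak2, on chr19:29326318-29387570, plus strand, encodes the kinase bound to the receptor. It was at 5.85, 5.85 and 6.82 RPKM in WT at CT0, 5.84, 5.4 and 4.75 RPKM in WT at CT12, 5.49, 6.53 and 5.85 RPKM in KO at CT0 and 5.61, 6.63 and 6.12 RPKM in KO at CT12. The WT libraries of CT12 lay just below those of CT0, at 5.84 against 5.85 RPKM at the closest, and the KO libraries overlapped. Over both times KO and WT differed by 0.06 ± 0.07 (95% interval -0.10 to 0.23, adjusted p = 0.65).

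Stat5b and Stat5a encode the transcription factors that carry the growth hormone signal to the nucleus, with STAT5B the more abundant form in liver. They are neighbours on chromosome 11, Stat5b on chr11:100642045-100712038, minus strand, and Stat5a on chr11:100720665-100746483, plus strand. The genes point away from each other and 8626 bases lie between them. In mean RPKM, a scale that takes account of length, Stat5b was above 68.2% of the tested genes and Stat5a above 36%.

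Stat5b was at 13, 16.6 and 17.6 RPKM in WT at CT0 and at 6.61, 8.19 and 7.32 RPKM in WT at CT12. KO livers had 15.5, 16.1 and 16.6 RPKM at CT0 and 11.1, 11.9 and 12.7 RPKM at CT12. At CT12 all KO libraries lay above all WT libraries, and in both genotypes all CT12 libraries lay below all CT0 libraries. The mean in WT at CT12 was 46.9% of that at CT0, a difference of -0.99 ± 0.11 (adjusted p = 0.00023). For KO it was 74% of that at CT0, a difference of -0.41 ± 0.11 that did not pass (adjusted p = 0.087, 95% interval -0.66 to -0.16).

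At CT0 the genotypes had nearly the same Stat5b mean, 15.7 ± 2.42 RPKM in WT and 16.1 ± 0.562 RPKM in KO (SD, n = 3 each), a difference of 0.04 ± 0.11 (95% interval -0.21 to 0.29). At CT12 the KO mean was 1.61 times the WT mean, a difference of 0.63 ± 0.11 (adjusted p = 0.0043). Over both times Stat5b was higher in KO by 0.33 ± 0.08 (adjusted p = 0.019). The test of whether the change with time itself differed between genotypes gave 0.58 ± 0.16 and missed the threshold (unadjusted p = 0.0037, adjusted p = 0.12). Without replicate 1 of WT at CT0, the lowest of its group, this interaction was 0.71 ± 0.14 and passed (adjusted p = 0.042).

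Stat5a showed the same order of groups in WT. It was at 4.57, 6.45 and 6.39 RPKM in WT at CT0 and 2.36, 2.81 and 3.16 RPKM in WT at CT12, with no overlap. The KO levels were 4.24, 4.03 and 4.36 RPKM at CT0 and 3.35, 3.46 and 5.34 RPKM at CT12, and these overlapped. In WT the Stat5a mean at CT12 was 47.9% of that at CT0, a difference of -0.84 ± 0.16 (adjusted p = 0.006). In KO the mean at CT12 was 96.1% of that at CT0, a difference of -0.07 ± 0.16 (adjusted p = 0.86, 95% interval -0.42 to 0.28).

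The KO libraries of Stat5a all lay below the WT libraries at CT0 and all above them at CT12. The differences were -0.37 ± 0.16 at CT0 (unadjusted p = 0.039, adjusted p = 0.31) and 0.40 ± 0.16 at CT12 (unadjusted p = 0.027, adjusted p = 0.14). Without replicate 3 of KO at CT12, at 5.34 RPKM, the difference at CT12 was 0.23 ± 0.14 (adjusted p = 0.41). The interaction, which tests these 2 differences against each other, was 0.77 ± 0.23 (unadjusted p = 0.0051, adjusted p = 0.15) and did not pass over all tested genes. Stat5a and Stat5b are made in other liver cells as well as in hepatocytes. In bulk tissue, fewer cells of a type and less RNA per cell cannot be told apart.

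Some markers of non-parenchymal cells also differed with time in WT. There 2 of 11 Kupffer cell markers, 2 of 9 endothelial markers and 3 of 8 stellate cell markers were lower at CT12 and none was higher. That is 18.2%, 22.2% and 37.5%, beside 11.6% over all tested genes. The median differences were -0.62, -0.52 and -0.52, beside -0.07 over all tested genes. In KO the medians were -0.38, -0.49 and -0.40. None of these markers passed in limma in KO, beside 2.43% of all tested genes. An unadjusted p under 0.05 was found there for 2 of 11, 4 of 9 and 5 of 8. By an ordinary linear model 2052 of the 10799 tested genes had one with time in KO. The summed endothelial markers were at 133 to 159 RPKM in WT at CT0 and 94 to 110 RPKM in WT at CT12, the Kupffer markers at 232 to 300 and 142 to 210 RPKM, and the stellate markers at 199 to 257 and 135 to 161 RPKM. In KO the endothelial sum was 153 to 166 RPKM at CT0 and 71.9 to 175 RPKM at CT12, the Kupffer sum 204 to 298 and 151 to 259 RPKM, and the stellate sum 236 to 283 and 175 to 229 RPKM. No marker of these lists was at 0 in every library. The 4 haemoglobin genes summed to 71.1 to 152 RPKM in WT at CT12 and 223 to 278 RPKM in KO at CT12, and 2 of 4 were higher in KO there. The same 2 genes fell with time in WT. In each comparison that is 50% of the 4, beside 10.5% and 11.6% over all tested genes. The part of all these cell markers in the Stat5a and Stat5b differences was not tested.

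The bile duct list had 4 of 6 markers tested. Of these Spp1, which macrophages also make, was higher in KO at both times, by 1.36 ± 0.16 over both, and Krt7 was lower at CT12 in WT. A single call is 25% of the 4, beside 1.86%, 10.5%, 11.5% and 11.6% over all tested genes in these comparisons. Krt7 had means of 1.06 and 0.219 RPKM in WT and 0.554 and 0.074 RPKM in KO at CT0 and CT12. Only WT at CT0 reached the filter of 1 RPKM, so the fall of Krt7 from that group is not separate from the filter. The summed list was at 27.2 to 65.2 RPKM in WT and 88.4 to 153 RPKM in KO, but nearly all of it was Spp1, with means of 52.1 and 35.5 RPKM in WT and 119 and 105 RPKM in KO at CT0 and CT12. None of the other tested bile duct markers was called between genotypes. Of 7 lymphocyte markers 6 were under 1 RPKM in every library and none was tested.

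**Figure D2:**
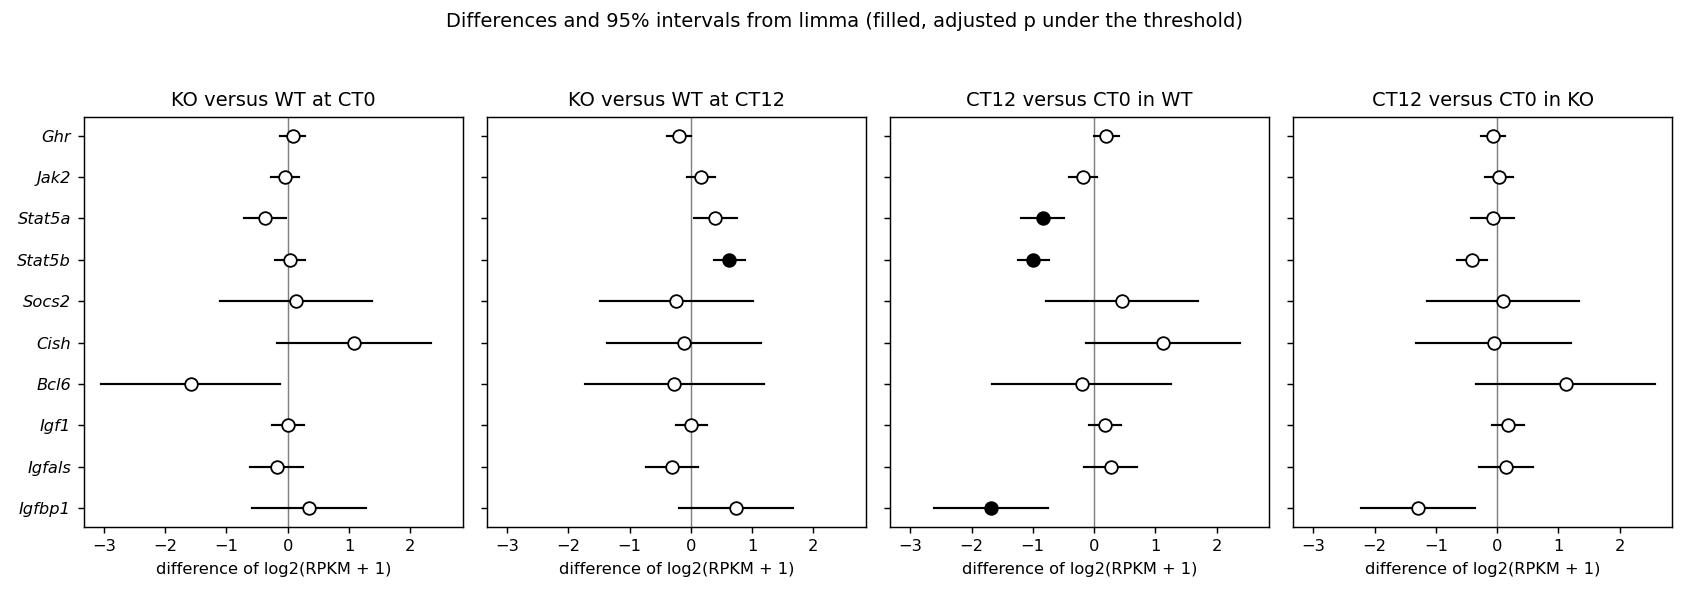
Difference of log2(RPKM + 1) (x axis) for each axis gene (y axis) in 4 comparisons, with 95% intervals from limma and filled points where the adjusted p is under 0.05. Stat5b is filled between genotypes at CT12, and Stat5a, Stat5b and Igfbp1 are filled with time in WT, where the intervals of Socs2, Cish and Bcl6 are each over 2 units wide.

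Socs2, Cish and Bcl6 respond to STAT5 within hours of a growth hormone pulse, the first pair as induced inhibitors of the receptor complex and Bcl6 as a repressed gene. None of the 3 passed in any of the 6 comparisons in limma, and Bcl6 at CT0 was the 1 case with an unadjusted p under 0.05. The SD inside a group reached 8.04 RPKM for Socs2, 3.25 RPKM for Cish and 6.54 RPKM for Bcl6. The sequences below show where STAT5-type letters stand at the starts of these targets. The core TTCNNNGAA, which reads the same on both strands, was searched in windows from 250 bases before to 50 bases after each RefSeq gene start (GRCm38.p6). Of 32851 windows 8.3% held it. Of the 10 genes 9 had a window, all but Socs2, with 15 windows in all, of which 5 held the core. These belong to Cish, Bcl6 and Igfals. Matched letters are in capitals below, 5′ to 3′ on the strand of the gene, and the 3 Bcl6 sites come from the second of its windows.
Cish, chr9:107296654-107296682, plus strand: cagttTTCCTGGAAagTTCTTGGAAatct
Bcl6, chr16:23981433-23981461, minus strand: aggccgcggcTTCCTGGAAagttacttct
Bcl6, chr16:23981387-23981415, minus strand: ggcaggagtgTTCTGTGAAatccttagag
Bcl6, chr16:23981353-23981381, minus strand: atcgactacgTTCCGGGAAtgagagggct
Igfals, chr17:24878163-24878191, plus strand: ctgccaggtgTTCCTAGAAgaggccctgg

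Cish holds a pair of matches that begin at bases 1 and 12 of the annotated transcript, and 0.457% of all windows hold 2 or more. The Bcl6 window holds 3, which begin at -168, -122 and -88, and 0.0335% of all windows hold 3 or more. The Igfals match shown begins at -58 of its second window. Single matches at -118 in the first window of Bcl6 and at -236 in the first window of Igfals are not printed. The E-box CACGTG, the letters that BMAL1 and CLOCK bind, was in 7.15% of windows and in 1 of the 15 windows of the axis genes, the first window of Bcl6, at -60. These are matches of letters, and binding was not measured.

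Cish encodes a SOCS protein that blocks STAT5 docking to the receptor and lies on chr9:107198357-107205115, plus strand (NCBIM37). Its row with the highest mean has 371 bases and held few reads, between 1 and 48 per library. On it Cish was at 5.99, 0.142 and 1.12 RPKM in WT at CT0, where the middle value is 1 read, and at 4.01, 8.81 and 2.61 RPKM in WT at CT12. The KO values were 3.98, 7.38 and 2.82 RPKM at CT0 and 3.74, 6.92 and 2.76 RPKM at CT12. The lowest library of WT at CT0 was the only one of the 12 at a single read. The difference with time in WT was 1.13 ± 0.58 (95% interval -0.13 to 2.39, adjusted p = 0.24). Single libraries decided its size. Without replicate 1 of WT at CT0 it was 1.85 ± 0.47 and passed (adjusted p = 0.037), without replicate 2 of WT at CT0, the library at 1 read, it was 0.55 ± 0.55 (adjusted p = 0.6), and without replicate 2 of WT at CT12 it was 0.73 ± 0.62 (adjusted p = 0.5). At CT0 KO and WT differed by 1.08 ± 0.58 (adjusted p = 0.44), with 1.80 without replicate 1 and 0.50 without replicate 2 of WT at CT0. With a pseudocount of 0.1 these 2 differences were 1.93 and 1.88, and neither passed (adjusted p = 0.19 and 0.38).

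The full-length Cish row of 2850 bases gave the same library as lowest. It was at 2.86, 0.406 and 0.54 RPKM in WT at CT0 and 1.81, 3.58 and 0.785 RPKM in WT at CT12. For KO the row gave 1.53, 3.18 and 1.56 RPKM at CT0 and 2.8, 4.21 and 0.924 RPKM at CT12. The WT libraries of both times overlapped on this row too, and the difference with time in WT was 0.49 ± 0.45 (adjusted p = 0.51), while KO and WT at CT0 differed by 0.57 ± 0.45 (adjusted p = 0.62).

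Socs2 encodes the SOCS protein whose loss gives overgrown mice, and lies on chr10:94874124-94879814, minus strand. It was at 4.47, 6.88 and 4.52 RPKM in WT at CT0 and 14.1, 3.97 and 7.2 RPKM in WT at CT12. The KO livers had 2.56, 17.1 and 3.86 RPKM at CT0 and 12, 5.01 and 3.83 RPKM at CT12. Single libraries at 12 to 17.1 RPKM stood in 3 of the 4 groups, above the rest of their groups. KO and WT over both times differed by -0.05 ± 0.40, with a 95% interval of -0.93 to 0.83 that leaves room for a change of either sign. On its longest row, of 2222 bases, the same 3 libraries were highest, at 11.9 RPKM in WT at CT12, 14.9 RPKM in KO at CT0 and 12.7 RPKM in KO at CT12.

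Bcl6, on chr16:23965138-23988938, minus strand, encodes a transcriptional repressor. It was at 1.8, 9.59 and 8.8 RPKM in WT at CT0, 2.25, 10.3 and 4.21 RPKM in WT at CT12, 0.666, 1.61 and 1.48 RPKM in KO at CT0 and 2.14, 1.48 and 13.1 RPKM in KO at CT12. At CT0 all KO libraries lay below all WT libraries, though the highest KO library and the lowest WT library were close. The KO mean there was 18.6% of the WT mean, a difference of -1.58 ± 0.67 that did not pass (unadjusted p = 0.036, adjusted p = 0.3). Over both times the difference was -0.92 ± 0.47 (95% interval -1.96 to 0.11, adjusted p = 0.25). It was -1.31 without replicate 3 of KO at CT12, the highest KO library.

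Igf1 encodes insulin-like growth factor 1, most of which in blood comes from the liver, and lies on chr10:87321010-87399787, plus strand. It was at 334, 311 and 260 RPKM in WT at CT0 and 343, 308 and 370 RPKM in WT at CT12. In KO it was at 261, 326 and 322 RPKM at CT0 and 328, 361 and 335 RPKM at CT12. The genotypes overlapped at both times. Over both times KO and WT differed by 0.01 ± 0.08, with a 95% interval of -0.18 to 0.19. The difference with time was 0.18 ± 0.12 in WT (adjusted p = 0.37) and 0.18 ± 0.12 in KO (adjusted p = 0.44), and the interaction had a 95% interval of -0.37 to 0.36.

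Igf1 has 8 transcript rows of 510 to 7052 bases, and the row used has 651. For the 7 rows up to 2292 bases the difference with time was 0.17 to 0.25 in WT and 0.17 to 0.24 in KO. For the row of 7052 bases it was 0.39 ± 0.13 in WT and 0.41 ± 0.13 in KO. On that row Igf1 was at 62, 62.2 and 50.1 RPKM in WT at CT0 and at 76.6, 67.7 and 84.5 RPKM in WT at CT12, with no overlap. In the KO livers this row gave 48.5, 63.7 and 61.8 RPKM at CT0 and 79.7, 80.2 and 71.4 RPKM at CT12, again with no overlap. The rows share exons, and whether the long and the short rows differ from each other was not tested.

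**Figure D3:**
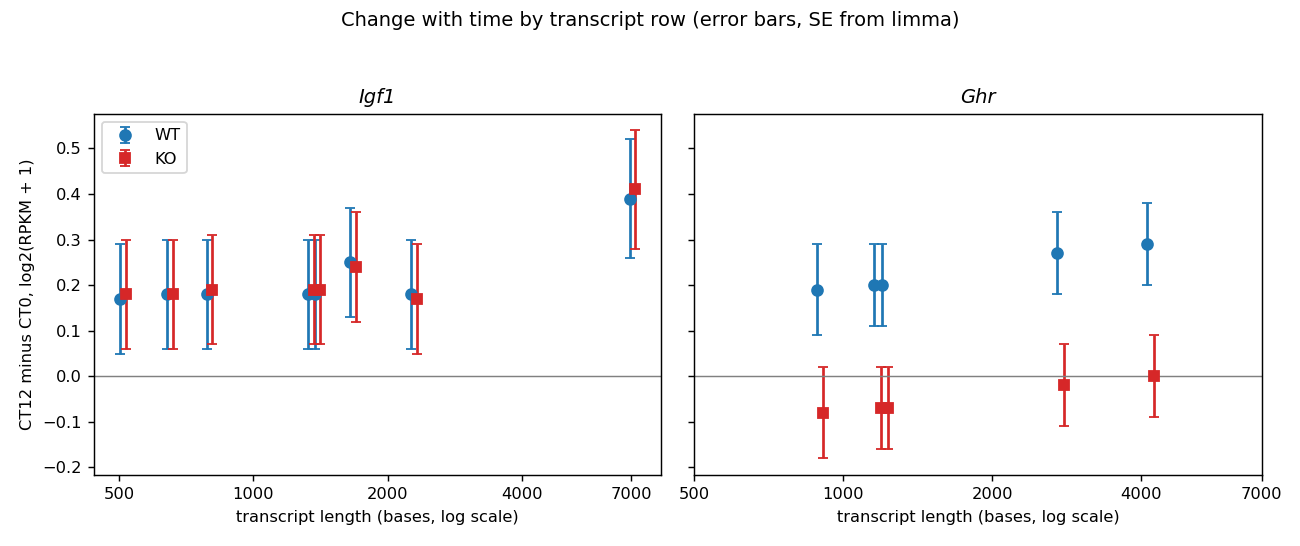
Difference of CT12 minus CT0 in log2(RPKM + 1) (y axis) against transcript length in bases (x axis, log scale) for the rows of Igf1 and Ghr, with WT as circles, KO as squares and error bars of 1 SE from limma. For Igf1 the longest row stands at 0.39 in WT and 0.41 in KO, and for Ghr the WT rows reach 0.29 while the KO rows stay between -0.08 and 0.00.

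Igfals, on chr17:25015715-25018953, plus strand, encodes the acid-labile subunit that holds IGF1 in a long-lived complex in blood. It was at 34.2, 31.5 and 23.8 RPKM in WT at CT0 and 37, 31.5 and 39.2 RPKM in WT at CT12. KO libraries had 18.4, 34 and 27.6 RPKM at CT0 and 27.7, 32.8 and 26 RPKM at CT12. The groups overlapped throughout, and KO and WT over both times differed by -0.24 ± 0.14 (95% interval -0.55 to 0.06, adjusted p = 0.31).

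Igfbp1 encodes a secreted protein that binds IGF1 and is known to be repressed by insulin, and lies on chr11:7097785-7102549, plus strand. It was at 41, 90.3 and 78.3 RPKM in WT at CT0 and at 26.1, 21.5 and 14.1 RPKM in WT at CT12, with no overlap. Levels in KO were 143, 80.6 and 52.7 RPKM at CT0 and 28.1, 22.6 and 61.1 RPKM at CT12, with overlap. The WT mean at CT12 was 29.5% of that at CT0, a difference of -1.68 ± 0.43 (adjusted p = 0.027). The KO mean at CT12 was 40.5% of that at CT0, a difference of -1.29 ± 0.43 that did not pass (unadjusted p = 0.011, adjusted p = 0.13).

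The call of Igfbp1 with time in WT was lost without replicate 2 of WT at CT0 (-1.46, adjusted p = 0.096), without replicate 3 of WT at CT0 (-1.56, adjusted p = 0.088), without replicate 2 of WT at CT12 (-1.73, adjusted p = 0.054) and without replicate 3 of WT at CT12 (-1.44, adjusted p = 0.1). It was also lost without a filter on low values (adjusted p = 0.058). The interaction of genotype and time was 0.39 ± 0.60 (95% interval -0.93 to 1.70), and -0.03 to 0.76 without single libraries. KO and WT differed by 0.74 ± 0.43 at CT12 (adjusted p = 0.32) and by 0.54 ± 0.30 over both times (adjusted p = 0.29). Without replicate 3 of KO at CT12, at 61.1 RPKM, these were 0.32 and 0.34, and without replicate 1 of KO at CT0, at 143 RPKM, the difference over both times was 0.36.

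The axis genes were also compared inside the groups, library by library. Each library was expressed as its deviation from its group mean, and all 45 pairs of the 10 genes were compared over the 12 libraries, a comparison added after seeing the data. P-values are two-sided, from an exact permutation of libraries inside their groups with 1296 arrangements. After Benjamini-Hochberg adjustment over the 45 pairs none passed, and 5 pairs had an unadjusted p under 0.05 by Pearson's r and 4 by Spearman's rho.

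The pair with the lowest p was Igf1 and Igfals, both known STAT5 targets, with r = 0.93 (exact permutation p = 0.0015, adjusted p = 0.069) and Spearman's rho = 0.94 (exact permutation p = 0.0015, adjusted p = 0.069). Without the 2 libraries farthest from the median of Igf1, r was 0.86. In each pair below, the 2 farthest libraries are likewise those of the gene named first. Libraries far out for the second gene may thus remain. Stat5b and Bcl6 followed with r = 0.84 (exact permutation p = 0.0093, adjusted p = 0.21) and rho = 0.83 (exact permutation p = 0.017, adjusted p = 0.36), and r was 0.84 without the 2 farthest libraries. Stat5a and Bcl6 had r = 0.87 (exact permutation p = 0.047, adjusted p = 0.42) and rho = 0.79 (exact permutation p = 0.051, adjusted p = 0.36), and r was 0.72 without the 2 farthest libraries. For Stat5a and Stat5b r was 0.76 (exact permutation p = 0.024, adjusted p = 0.36) and rho 0.71 (exact permutation p = 0.062, adjusted p = 0.36), with r = 0.70 without the 2 farthest libraries.

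For Stat5a and the inhibitor Cish r was -0.65 (exact permutation p = 0.076, adjusted p = 0.49) and rho -0.72 (exact permutation p = 0.032, adjusted p = 0.36), with r = -0.53 without the 2 farthest libraries. For Ghr and Cish r was 0.57 (exact permutation p = 0.032, adjusted p = 0.36) and rho 0.59 (exact permutation p = 0.053, adjusted p = 0.36), with r = 0.58 without the 2 farthest libraries. For Igf1 and Igfbp1 r was -0.63 (exact permutation p = 0.063, adjusted p = 0.47), with r = -0.54 without the 2 farthest libraries. Their rho was -0.68 (exact permutation p = 0.048, adjusted p = 0.36). Depth and the marker sums given above also vary between the libraries of a group, and their part in these deviations was not tested.

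**Figure D4:**
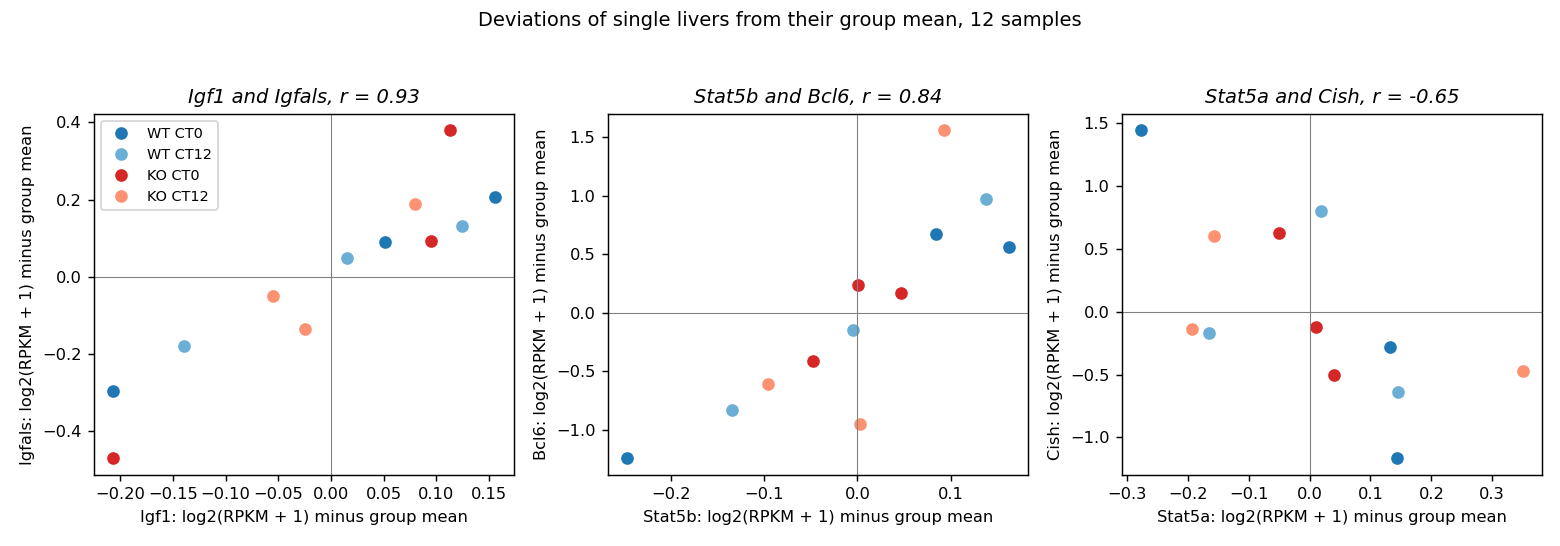
Deviation of each of 12 libraries from its group mean in log2(RPKM + 1), for Igf1 (x) and Igfals (y), Stat5b (x) and Bcl6 (y), and Stat5a (x) and Cish (y), coloured by group. Points climb to the right in the first pair of panels, with r = 0.93 and 0.84, and fall in the last, with r = -0.65.

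As a description over the 12 libraries, the genes whose log2 levels were most like Igf1 were Pomt2, Slc38a10 and Tacc1, with r of 0.853, 0.832 and 0.823. For Socs2 they were Plcxd2, Sntg2 and B3galt1, with r of 0.847, 0.844 and 0.825. For Bcl6 they were Tle2, Zfp385b and Nipal1, with r of 0.865, 0.855 and 0.852. For Igfbp1 they were Pxdn, Itgb5 and Tinagl1, with r of 0.946, 0.943 and 0.939. These r include differences between the groups.

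Of 45 other genes of growth hormone, cytokine and IGF signalling 38 were tested. None passed between genotypes at CT0 in limma, beside 1.86% of all tested genes, and 3 had an unadjusted p under 0.05. By an ordinary linear model 1495 of the 10799 tested genes had one at CT0. At CT12 2 were higher in KO and 2 lower, which is 10.5% of the 38 and no more than the 10.5% over all tested genes. The higher ones were Irs2, an adaptor of the insulin and IGF1 receptors, at 1.11 ± 0.21 (adjusted p = 0.0047), and Grb14, an inhibitor of the insulin receptor, at 0.86 ± 0.11 (adjusted p = 0.00032). The lower ones were Lepr, the leptin receptor, at -1.11 ± 0.27 (adjusted p = 0.022), and the binding protein Igfbp4 at -0.28 ± 0.08 (adjusted p = 0.042). With quantile normalization the call of Igfbp4 was lost and the phosphatase gene Ptpn6 was called lower in KO. Over both times 2 of 38 passed, or 5.26% beside 11.5% over all tested genes, Irs2 and Grb14, both higher in KO. With quantile normalization Lepr was called there too, lower in KO.

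With time in WT 1 of the 38 was higher at CT12 and 6 were lower, or 18.4% beside 11.6% over all tested genes. Igfbp4 was higher, from 325 ± 14.9 to 447 ± 25.3 RPKM (SD, n = 3 each). Irs2, Grb14, Igfbp3 and Igfbp7 were lower, with differences of -1.04, -0.69, -0.66 and -0.64, and so were Stat3 and Irs1, with -0.51 and -0.50. The calls of Stat3 and Irs1 were lost with quantile normalization. Igfbp3 and Igfbp7 are made largely by non-parenchymal cells of the liver. In WT 2 of 11 Kupffer, 2 of 9 endothelial and 3 of 8 stellate markers were called lower at CT12. A link between these markers and Igfbp3 or Igfbp7 was not tested. With time in KO 1 of 38 passed, or 2.63% beside 2.43% over all tested genes. It was the phosphatase gene Ptpn6, which was lower at CT12. With quantile normalization Igfbp3 was also called lower at CT12 in KO. The interaction passed for 1 of 38, or 2.63% beside 1.49% over all tested genes, Grb14, at 0.79 ± 0.15 (adjusted p = 0.026). Grb14 in WT was at 26.2 ± 2.21 RPKM at CT0 against 16 ± 2.17 RPKM at CT12, and in KO at 27.6 ± 1.37 against 29.7 ± 2.46 RPKM (SD, n = 3 each).

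Pulses of growth hormone sustain male-biased genes of the liver through STAT5B and hold female-biased genes down. All 24 male-biased genes listed were tested. At CT0 1 was lower in KO, at CT12 3 were higher and 1 was lower, and over both times 3 were higher and 4 lower. These calls are 4.17%, 16.7% and 29.2% of the 24, beside 1.86%, 10.5% and 11.5% over all tested genes. With time 2 were lower at CT12 in WT, 2 were higher in KO, and 2 had an interaction, Elovl3 and Hsd17b2. The share is 8.33% in each, beside 11.6%, 2.43% and 1.49% over all tested genes. Elovl3, a fatty acid elongase also known for its daily rhythm, was at 95.7 ± 19.3 RPKM in WT at CT0, 7.21 ± 0.0918 RPKM in WT at CT12, 89.2 ± 7.39 RPKM in KO at CT0 and 240 ± 55 RPKM in KO at CT12 (SD, n = 3 each). Its difference at CT12 was 4.85 ± 0.16 (adjusted p = 1.6e-08) and its interaction 4.93 ± 0.23 (adjusted p = 7.5e-07). Over both times the steroid enzyme gene Hsd3b5 was higher in KO by 1.27 ± 0.21, and Serpina1e and Cyp4a12a were lower, with differences of -1.95 ± 0.49 and -1.41 ± 0.31. Serpina1e, the Mup genes and the Cyp4a12 genes belong to families of near-identical copies, so their reads may be split uncertainly.

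Of 30 female-biased genes 21 were tested. In KO 2 were higher and 1 lower at CT0, 3 higher and 6 lower at CT12, and 4 higher and 7 lower over both times. These calls are 14.3%, 42.9% and 52.4% of the 21, beside 1.86%, 10.5% and 11.5% over all tested genes. With quantile normalization Sult1e1 and Cyp17a1 lost their calls at CT12, which left 2 higher and 5 lower. With time 2 were higher at CT12 in WT and 1 was lower in KO, and the interaction passed for 1, Cyp2a4. The shares are 9.52%, 4.76% and 4.76%, beside 11.6%, 2.43% and 1.49% over all tested genes. Over both times Sult1e1, an oestrogen sulfotransferase, was higher by 3.16 ± 0.44, and Ntrk2 by 2.18 ± 0.13. The Ntrk2 means at CT0 and CT12 were 0.404 and 0.082 RPKM in WT and 4.9 and 4.32 RPKM in KO. Only its KO groups reached the filter of 1 RPKM, so its call as higher in KO is not separate from the filter. Cyp2b9 and Cyp2a4 were lower, with differences of -2.61 ± 0.61 and -2.51 ± 0.15, and both belong to families of similar copies. The median over the list was -0.24 for the female-biased genes and -0.07 for the male-biased genes, beside 0.04 over all tested genes. Neither list moved in a single direction between genotypes.

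Of 18 genes that respond to insulin or fasting 17 were tested, Irs2 among them. With time in WT 6 were higher at CT12 and 2 lower, and in KO 2 were higher and 1 lower. These calls are 47.1% and 17.6% of the 17, beside 11.6% and 2.43% over all tested genes. Pck1, the gluconeogenic enzyme, was higher by 1.33 ± 0.23 in WT and by 2.03 ± 0.23 in KO. Pdk4, which spares glucose, was lower in WT, with a difference of -1.69 ± 0.24. In KO Pdk4 was at 8.44 ± 1.99 RPKM at CT0 against 3.64 ± 0.342 RPKM at CT12 (SD, n = 3 each). This fall in KO was not called in the main fit but was called with quantile normalization. Between genotypes 1 of 17 was lower in KO at CT0, or 5.88% beside 1.86% over all tested genes. At CT12 2 were higher and 4 lower, or 35.3% beside 10.5%. Over both times 2 were higher and 4 lower, or 35.3% beside 11.5%. Among those at CT12 were Pdk4 at 1.26 ± 0.24 and Srebf1, the lipogenic regulator, at -0.99 ± 0.21. None of the 17 passed for the interaction in limma, beside 1.49% of all tested genes, and 5 had an unadjusted p under 0.05. By an ordinary linear model 1323 of the 10799 tested genes had one for the interaction. Igfbp1, which belongs to this group by its regulation, was lower at CT12 in WT. Of the list 2 genes were lower there too, Irs2 and Pdk4, while 6 were higher, Pck1 among them.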

How the data were processed

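Mouse liver RNA was sequenced in 12 libraries (TruSeq RNA kit), 3 in each of 4 groups, assigned from the sample titles. The authors deposited RPKM values for 46585 Ensembl transcripts per library; the submitters' processing notes name TopHat2, bedtools 2.19.1 and mm9, while the annotation release and the treatment of reads shared by transcripts are not given in the sources used here. Depth was recovered from RPKM steps with GENCODE vM1 lengths, where 94.6% to 95.5% of low values fell on whole reads (tolerance 0.02). The row with the highest mean per symbol was analysed as log2(RPKM + 1), and symbols whose mean reached 1 RPKM in any group were tested. Group means were fitted to all 12 libraries with limma 3.58.1 in R 4.3.3 (lmFit, eBayes with trend, Benjamini-Hochberg, threshold 0.05), and the fit was tested on simulated data. Results were recomputed with quantile normalization, a pseudocount of 0.1, a filter on the overall mean or none, a replicate block, summed rows, only the 6 libraries compared, an ordinary linear model and leaving out each library. The axis genes and all lists were chosen with earlier results of these data known. All 10 axis genes were named, and from each list at most the 4 largest changes past the threshold in a comparison, plus genes a value turned on. Igfbp4, Stat3 and Irs1 (with time in WT) and the markers Alb, Asgr1, Spp1 and Krt7 were named after their values were seen. Promoter windows came from RefSeq on GRCm38.p6. Python 3.11.15 was used for permutations and plots.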

Additional observations from a re-analysis of the deposited data

Results flagged for a closer look

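An interaction of genotype and time past the threshold was found for Grb14 (0.79), Elovl3 (4.93), Hsd17b2 (1.08) and Cyp2a4 (-2.50), all on the log2(RPKM + 1) scale and all from lists beside the axis. In WT Hsd17b2 was at 102 ± 11.8 RPKM at CT0 against 61.9 ± 11.8 RPKM at CT12, and in KO at 100 ± 15.8 against 127 ± 5.02 RPKM (SD, n = 3 each). In WT Cyp2a4 was at 8 ± 1.81 RPKM at CT0 against 51 ± 10.8 RPKM at CT12, and in KO at 2.81 ± 1.12 against 2.8 ± 0.513 RPKM (SD, n = 3 each).

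Stat5a drew attention because every KO library lay below every WT library at CT0 and above every WT library at CT12. Its interaction of 0.77 did not pass over all tested genes (limma, adjusted p = 0.15).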

How the results depend on the processing

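The calls of Stat5a with time in WT and of Stat5b with time in WT and between genotypes at CT12 were kept under 21 of 21 alternatives each, with highest p of 0.03, 0.0038 and 0.022. The call of Stat5b over both times was kept under 20 of 20, with differences of 0.27 to 0.37. Its highest adjusted p in limma was 0.048, close to the threshold. The call of Igfbp1 with time in WT was kept under 16 of 21. The count of axis genes called stayed at its value under the other settings tried on all 12 libraries or the 6 compared, with these exceptions. With time in WT it was 2 without a filter, and 4 with the longest row of each gene or with an ordinary linear model and unadjusted p-values, which also gave 2 between genotypes at CT12, 2 with time in KO and 2 for the interaction. Without a library in turn the count was 0 to 0 between genotypes at CT0, 1 to 1 at CT12, 1 to 1 over both times, 2 to 4 with time in WT (4 without replicate 1 of WT at CT0), 0 to 0 with time in KO and 0 to 1 for the interaction.

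Over all tested genes, calls between genotypes at CT0 fell from 201 to 114 without a filter and to 105 with only the 6 libraries compared, and calls with time in KO fell from 262 to 161 and 26. The ordinary model gave 1495 at CT0, 2618 at CT12, 2620 over both times, 2771 with time in WT, 2052 with time in KO and 1323 for the interaction. Leaving out a library gave 76 to 208 at CT0 (lowest without replicate 2 of WT at CT0), 728 to 1281 at CT12 (lowest without replicate 3 of WT at CT12), 938 to 1181 over both times, 660 to 1393 with time in WT (lowest without replicate 3 of WT at CT12), 62 to 257 with time in KO (lowest without replicate 3 of KO at CT0) and 87 to 146 for the interaction (lowest without replicate 2 of WT at CT0). Quantile normalization changed the share of higher calls from 66.6% to 52% at CT12, from 64.9% to 52.4% over both times and from 72% to 59.7% for the interaction. The causes were not tested.

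Signs turned only for values that did not pass. Igf1 over both times was -0.01 with quantile normalization and -0.04 to 0.06 without a library, Socs2 over both times -0.40 to 0.18, Stat5a with time in KO -0.24 to 0.03, and the interaction of Igfbp1 -0.03 to 0.76.

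Over all tested genes, libraries of the same number had a mean r of 0.008 over 18 pairs, beside -0.004 over 36 pairs of other numbers. In 10 of 36 cases a library was most like its own number in another group. No pairing by number was thus seen over all tested genes, and pairing in single genes was not tested. With the number as a replicate block the axis calls were 0, 1, 1, 3, 0 and 0 in the order above, and those over all tested genes 173, 1075, 1180, 1198, 225 and 128.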
